A study of Mus musculus with 9 samples.

Results

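The miR-232724 clusters are 2 related groups of 3 miRNA hairpins each, and their mature products were followed through 9 small RNA-seq libraries. The members were taken by name: both arms of miR-23a, miR-23b, miR-27a, miR-27b and miR-24, with the identical 3p arms of the 2 miR-24 hairpins merged. This gave 11 mature miRNAs out of 414 miRNA names that could be placed on the files, each counted as the reads that start at its annotated 5′ end. MIN6 cells gave 3 libraries with the Illumina TruSeq kit and 3 with the older Illumina v1.5 kit. All 6 were sequenced on the GAIIx. A further MIN6 library was made with the NEXTflex V2 kit of Bioo Scientific, whose adapters end in degenerate bases, and was sequenced on the HiSeq. It came from the RNA of a TruSeq library that was not analysed here. MIN6 is an insulin-secreting line grown from a beta cell tumor of the mouse, and all of its libraries came from cells in DMEM with 25 mM glucose and 10% heat-inactivated fetal bovine serum. One TruSeq and one NEXTflex library came from a single RNA sample of mouse liver. The donor was 1 female C57BL/6J mouse, bought at 9 weeks of age, injected with saline into the tail vein and fasted overnight before the liver was collected 7 days later. Nothing in the labels ties the 3 libraries of a MIN6 group to named cultures, so p-values measure the spread between these libraries only.

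A primary transcript that holds several hairpins is cut into separate precursors in the nucleus, each precursor is then cut by Dicer into a 5p and a 3p arm, and as a rule one of both arms is loaded into Argonaute and kept. Hairpins of one cluster therefore start in equal numbers, and later steps such as processing and decay can set the mature products apart. The miR-232724 clusters are studied in angiogenesis, blood cell differentiation and lipid metabolism, and miR-24 also in insulin production by beta cells. Sequencing adds its own step, because an adapter has to be ligated to each end of the small RNA before it can be read.

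In the mouse genome the a cluster lies on chromosome 8 and the b cluster on chromosome 13, both on the plus strand. On GRCm38, the hairpins Mir23a, Mir27a and Mir24-2 span chr8:84208518-84208921, which is 404 nt. Mir23b, Mir27b and Mir24-1 span chr13:63300484-63301275, which is 792 nt. In GENCODE M21 the b cluster is inside the protein-coding gene 2010111I01Rik, with Mir23b outside its exons, Mir27b inside an annotated exon and Mir24-1 overlapping exons. Fancc spans the same stretch on the minus strand, with no exon opposite these hairpins. No other gene covers Mir23a or Mir27a, and the last bases of Mir24-2 overlap the lincRNA Gm26532. The deposited alignments are on mm9, where the 5′ ends of the 3p arms are at chr8:86732462 for miR-23a, 86732626 for miR-27a and 86732774 for miR-24-2, and at chr13:63401837 for miR-23b, 63402068 for miR-27b and 63402559 for miR-24-1.

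RefSeq holds the mature sequence of 10 of the 11 members (GRCm38.p6). The 3p arms are shown first, with the seed, bases 2 to 8, in capitals:
miR-23a-3p: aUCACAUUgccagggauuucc
miR-27a-3p: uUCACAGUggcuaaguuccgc
miR-27b-3p: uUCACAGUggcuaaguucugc
miR-24-3p: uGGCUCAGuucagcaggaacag

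miR-27a-3p and miR-27b-3p share their seed and differ at a single base, C19U, counted from 1 at the 5′ end and given with the miR-27a base first. Reads of at most 18 nt from this end are therefore the same for both. The deposited values show it: up to 18 nt, alignments without mismatch had equal values at both loci in 9 of 9 libraries (within 0.5 reads). The same held for miR-23a-3p and miR-23b-3p. Among the 1679 mature names in the RefSeq table, no other one shared the seed of miR-27a-3p and miR-27b-3p, and 4 shared that of miR-24-3p (miR-5124b, miR-6369, miR-6410 and miR-6413), none of them among the 414 placed names. The seed of miR-128-3p, CACAGUG, holds 6 of the same bases, CACAGU, 1 position nearer to the 5′ end. At its 2 loci together miR-128-3p had 1063 to 1155 reads per 1e6 mapped reads (RPMM) in TruSeq MIN6, 524 to 558 in v1.5 MIN6, 2165 in NEXTflex MIN6, 30.3 in TruSeq liver and 10.3 in NEXTflex liver.

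The 5p arms tell hairpins apart that the 3p arms do not, and the hairpins of miR-24 show why both are needed. In the next sequences the 2 mature arms are in capitals:
Mir24-1: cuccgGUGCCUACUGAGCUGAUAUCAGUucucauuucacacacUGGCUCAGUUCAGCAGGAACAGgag
Mir24-2: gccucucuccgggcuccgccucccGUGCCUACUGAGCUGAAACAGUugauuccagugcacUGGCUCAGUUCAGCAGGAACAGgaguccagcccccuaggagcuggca

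The 3p arms of Mir24-1 and Mir24-2 are letter for letter the same, so no read of miR-24-3p can be given to the a or the b cluster. The 5p arms, miR-24-1-5p and miR-24-2-5p, share their first 16 bases and differ after that.

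The expected counts of a library summed, in units of 1e6 reads, to between 6.92 and 13.2 on the GAIIx, to 25.6 in NEXTflex MIN6, to 17.9 in TruSeq liver and to 14.4 in NEXTflex liver. The labelled sources were checked against 2 marker miRNAs. miR-375-3p, a miRNA typical of beta cells, had 64950 to 186331 RPMM in the 7 MIN6 libraries and 40.0 and 26.7 in the 2 liver libraries. miR-122-5p, which marks hepatocytes, had 17244 and 532452 RPMM in liver and 0.151 to 2.38 in the 6 GAIIx libraries. In NEXTflex MIN6 it had 128 RPMM, which is 0.0240% of its level in NEXTflex liver. At that share of the NEXTflex liver level, miR-24-3p would have 0.461 RPMM, against the 5131 measured. The NEXTflex libraries also held few distinct 5′ ends, 58625 in MIN6 and 37587 in liver, against 312310 to 1354717 in the other 7, though they were not the shallowest libraries. Counting intervals given below are 95% Wilson intervals and cover counting error only. The limit given for a count of 0 is 3 reads in that library and likewise covers counting error only. With so few distinct 5′ ends, it may be too low for the NEXTflex libraries.

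Which of the 5 main members was the most abundant depended on the kit. In TruSeq MIN6, miR-27b-3p stood far above the others, and in v1.5 MIN6 and NEXTflex MIN6 miR-24-3p was the highest. miR-27b-3p had 72822, 72256 and 79270 RPMM in the 3 TruSeq MIN6 libraries and 16222, 17140 and 18021 in the 3 v1.5 MIN6 libraries. For miR-24-3p the values were 800, 824 and 811 RPMM with TruSeq and 31109, 28233 and 27761 with v1.5. The groups did not overlap for either miRNA, and they moved in opposite directions.

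**Figure D1:**
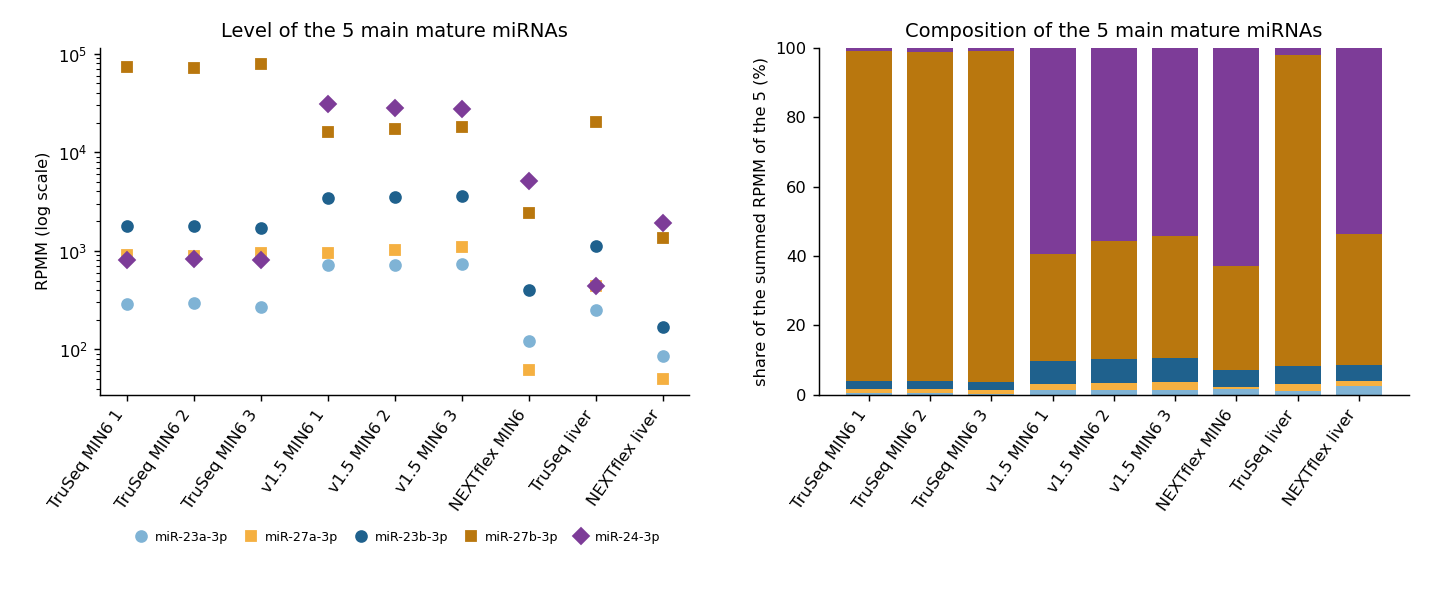
Level of the 5 main mature miRNAs in RPMM on a log axis (left) and their shares of the summed RPMM of the 5 in percent (right), 1 point or bar per library for the 9 libraries. In the TruSeq libraries miR-27b-3p makes up 89.9% to 95.5% of the sum, and in the v1.5 and NEXTflex libraries miR-24-3p makes up 53.6% to 62.9%.

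The 5 main members together took 7.61% to 8.30% of the mapped reads in TruSeq MIN6, 5.06% to 5.24% in v1.5 MIN6 and 0.815% in NEXTflex MIN6. miR-24-3p made up 0.977% to 1.08% of their sum in TruSeq MIN6, 54.2% to 59.3% in v1.5 MIN6 and 62.9% in NEXTflex MIN6. As the plot of levels and composition shows, the order of the 5 changed as well. In TruSeq MIN6 it was miR-27b-3p, miR-23b-3p, miR-27a-3p, miR-24-3p and miR-23a-3p, and no neighbours overlapped between the 3 libraries. The place of miR-27a-3p above miR-24-3p rested on reads that cannot be told from miR-27b-3p, being shorter than 19 nt or mismatched at base 19. Without them it had 548, 535 and 575 RPMM, under the 800 to 824 of miR-24-3p. v1.5 MIN6 had the order miR-24-3p, miR-27b-3p, miR-23b-3p, miR-27a-3p and miR-23a-3p, again with no overlap. In NEXTflex MIN6 miR-27a-3p was the lowest, at 62.1 RPMM (59.1 to 65.2). Among all 5′ ends, miR-27b-3p ranked 2 in each TruSeq MIN6 library and 13 in each v1.5 MIN6 library, and miR-24-3p ranked 106 to 111 and 5 to 8.

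The v1.5 and TruSeq libraries of MIN6 cells were compared with edgeR's quasi-likelihood test over 5641 5′ ends that reached 10 RPMM in at least 1 of the 6 libraries. Of these, 84.4% passed an adjusted p of 0.05, 48.9% as higher in v1.5 and 35.5% as higher in TruSeq, so that a call by itself sets no end apart. The groups did not overlap for 86.6%. Among the 360 tested ends that carry a miRNA name, 90.0% passed, 53.1% as higher in v1.5 and 36.9% as higher in TruSeq. The median end was 0.61 higher in v1.5 on the log2 scale. That median fell by 0.31 with TMM factors and by 0.53 with DESeq2 size factors. Of the 11 members 9 were tested and 7 passed, 6 as higher in v1.5 and 1, miR-27b-3p, as higher in TruSeq. miR-23a-5p and miR-23b-5p stayed under 10 RPMM in all 6 libraries and were not tested. miR-27a-5p passed the 10 RPMM limit through v1.5 alone.

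miR-24-3p, which is made from both clusters, had the largest difference among the members. Its level was 811 ± 12.1 RPMM (SD, n = 3) in TruSeq and 29034 ± 1812 (SD, n = 3) in v1.5, a ratio of 35.8. The log2 fold change was 5.16 with a standard error of 0.06, and the adjusted p was 2.6e-07 (edgeR, quasi-likelihood). A fitted difference of more than 32-fold in this direction was found for 12.0% of all ends tested and for 3.33% of the ends named as miRNAs.

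miR-27b-3p, studied as a regulator of lipid metabolism, fell by 2.13 on the log2 scale from TruSeq to v1.5 (SE 0.06, adjusted p = 2.27e-06 in edgeR's quasi-likelihood test). It had 74783 ± 3896 RPMM with TruSeq and 17128 ± 899 with v1.5 (SD, n = 3 each). The paralogs miR-23a-3p and miR-23b-3p were both higher in v1.5. miR-23a-3p had 287, 296 and 270 RPMM in TruSeq and 712, 719 and 737 in v1.5, and its log2 fold change was 1.35 (SE 0.05, adjusted p = 6.74e-06, edgeR). miR-23b-3p had 1796, 1803 and 1712 RPMM in TruSeq and 3436, 3498 and 3622 in v1.5, with a log2 fold change of 0.99 (SE 0.04, adjusted p = 6.04e-06, edgeR). The groups did not overlap for either, and the median end tested differed by 0.61 in the same direction.

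**Figure D2:**
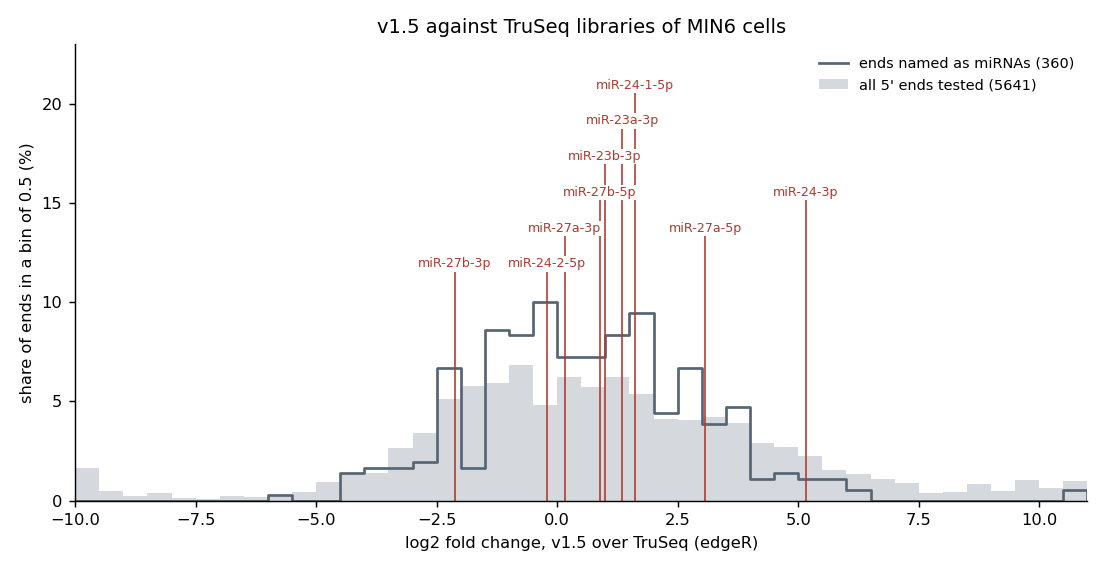
Log2 fold change of v1.5 over TruSeq in MIN6 cells from edgeR, in bins of 0.5, as the share of all 5641 ends tested (grey) and of the 360 ends named as miRNAs (line), with values beyond the axis placed in the outermost bins. Red lines mark the 9 members tested, from miR-27b-3p at -2.13 to miR-24-3p at 5.16.

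For miR-27a-3p the answer depended on which reads were counted. It had 910, 887 and 955 RPMM in TruSeq and 946, 1018 and 1106 in v1.5, and the ranges overlapped. The log2 fold change was 0.16 (SE 0.07, adjusted p = 0.0793 in edgeR's quasi-likelihood test), and its sign turned to -0.15 with TMM factors and to -0.37 with DESeq2 size factors. At this locus 39.8% ± 0.07 of the TruSeq reads (SD, n = 3) were either shorter than 19 nt or had a mismatch at base 19, so they cannot be told from miR-27b-3p, whose level in the same libraries was 80.0 to 83.0 times as high. In v1.5 the share was 5.86% ± 0.48 (SD, n = 3). With such reads left out, a choice made after the data were seen, miR-27a-3p had 548, 535 and 575 RPMM in TruSeq and 887, 957 and 1047 in v1.5, and the groups no longer overlapped. The log2 fold change was then 0.80 with an adjusted p of 0.000133 (edgeR), and over the 16 alternatives tried the adjusted p ran from 0.000133 to 0.236. Such reads made up 0.436% of miR-27b-3p and 13.9% of miR-23a-3p in TruSeq, and without them the log2 fold changes were -2.13 and 1.32.

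The reads of at least 20 nt that match miR-27a-3p at base 19 were set beside misread miR-27b-3p. They amounted to 0.690% to 0.722% of miR-27b-3p in TruSeq MIN6 and 5.53% to 5.88% in v1.5 MIN6. Over the 6 other U positions among the first 18 bases of miR-27b-3p, reads with a C in place of the U made up 0.00855% to 0.0290% in TruSeq MIN6 and 0.0145% to 0.216% in v1.5 MIN6.

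Members of one cluster come from one transcript, so the ratios between them were compared as well. All 6 ratios differed between v1.5 and TruSeq in MIN6 cells without overlap of the groups. Two-sided exact permutation tests gave p = 0.1 for each of the 6, which is the smallest value that 3 against 3 libraries allow, and 0.1 after Benjamini-Hochberg adjustment over the 6. In the b cluster, miR-27b-3p was 40.6, 40.1 and 46.3 times as abundant as miR-23b-3p in TruSeq, 4.72, 4.90 and 4.98 times in v1.5 and 6.09 times in NEXTflex. The log2 ratio of miR-23b-3p to miR-27b-3p thus rose by 3.12 (SE 0.07) from TruSeq to v1.5. In the a cluster the log2 ratio of miR-23a-3p to miR-27a-3p was higher by 1.19 (SE 0.09) in v1.5, and by 0.52 with the shared reads left out. miR-23a-3p was below miR-27a-3p in both Illumina kits, with ratios of 0.311 ± 0.026 in TruSeq and 0.708 ± 0.043 in v1.5 (SD, n = 3 each), and above it in NEXTflex MIN6 at 1.97.

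The ratios that involve miR-24-3p had the largest differences of the 6. For each read of miR-27a-3p and miR-27b-3p together, miR-24-3p had 0.0101 to 0.0113 reads in TruSeq, 1.45 to 1.81 in v1.5 and 2.05 in NEXTflex. The log2 difference between v1.5 and TruSeq was 7.22 (SE 0.11), a ratio of 149. Against miR-23a-3p plus miR-23b-3p, miR-24-3p stood at 0.384 to 0.409 in TruSeq, at 6.37 to 7.50 in v1.5 and at 9.81 in NEXTflex, and the log2 difference between v1.5 and TruSeq was 4.11 (SE 0.07). In both of these ratios the single NEXTflex MIN6 value lay above all 3 v1.5 values.

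**Figure D3:**
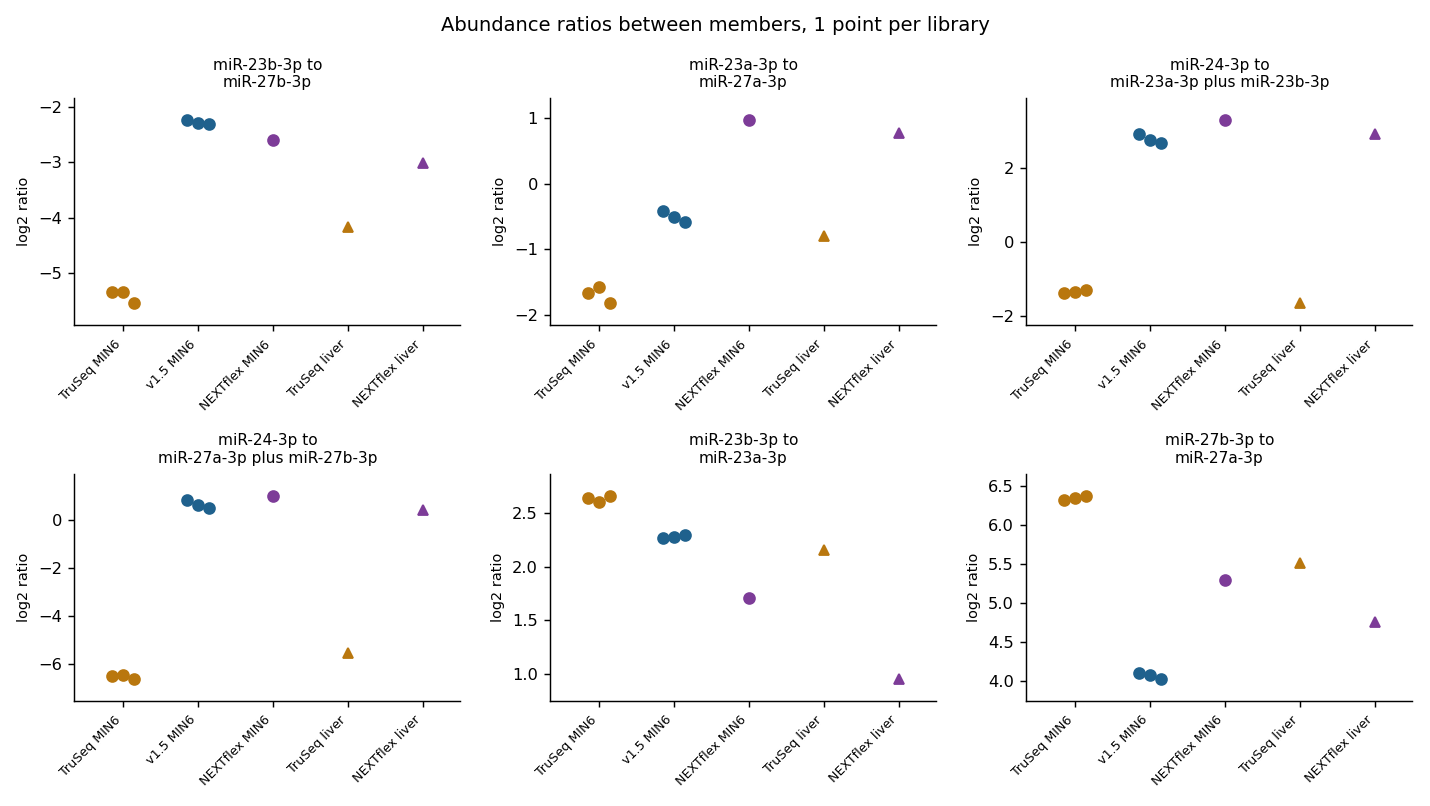
Log2 abundance ratios between members in 6 panels, with 1 point per library for the 3 TruSeq MIN6, 3 v1.5 MIN6, 1 NEXTflex MIN6, 1 TruSeq liver and 1 NEXTflex liver libraries (circles MIN6, triangles liver). In the panel of miR-24-3p against miR-27a-3p plus miR-27b-3p, the TruSeq libraries of both sources lie below -5 and the other libraries above 0.

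Between the paralogs of the same name, the ratio of b to a also moved. The log2 ratio of miR-23b-3p to miR-23a-3p changed by -0.35 (SE 0.02) from TruSeq to v1.5, from 6.23 ± 0.13 times to 4.87 ± 0.05 times (SD, n = 3 each). miR-27b-3p had 81.5 ± 1.5 times the reads of miR-27a-3p in TruSeq and 16.8 ± 0.4 times in v1.5 (SD, n = 3 each), a log2 difference of -2.28 (SE 0.03). Without the shared reads these were 132 to 137 times and 17.2 to 18.2 times. In both pairs the b copy had the smaller excess in v1.5.

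The lengths of the reads that start at the annotated 5′ end differed between kits too. miR-27b-3p was read mostly at 20 nt in TruSeq MIN6 and at 21 nt in v1.5 MIN6 and NEXTflex MIN6. Reads of 20 nt made up 64.1%, 63.0% and 63.7% of miR-27b-3p in TruSeq, 28.1%, 28.0% and 27.3% in v1.5 and 26.2% in NEXTflex. The difference between v1.5 and TruSeq was -35.8 percentage points. For miR-27a-3p the reads of 21 nt rose from 15.1% ± 0.1 to 59.2% ± 1.1 (SD, n = 3 each), and those of 18 nt, which it shares with miR-27b-3p, were at 31.1% to 31.3% in TruSeq, 3.80% to 4.48% in v1.5 and at 0 in NEXTflex.

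For the other 3 members the length profile moved less. miR-24-3p of 22 nt was at 28.8%, 25.6% and 22.6% in TruSeq, at 43.9%, 43.9% and 43.8% in v1.5 and at 42.3% in NEXTflex. Reads of 21 nt made up 35.4% ± 0.2 of miR-23a-3p in TruSeq and 15.4% ± 0.4 in v1.5, and 31.2% ± 0.6 and 28.8% ± 0.3 of miR-23b-3p (SD, n = 3 each). Each of the 5 length shares and each of the 5 shares with a mismatch at the last base had groups that did not overlap, and exact permutation tests gave p = 0.1 for each of these 10, the smallest they can give (0.1 after adjustment over the 10).

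**Figure D4:**
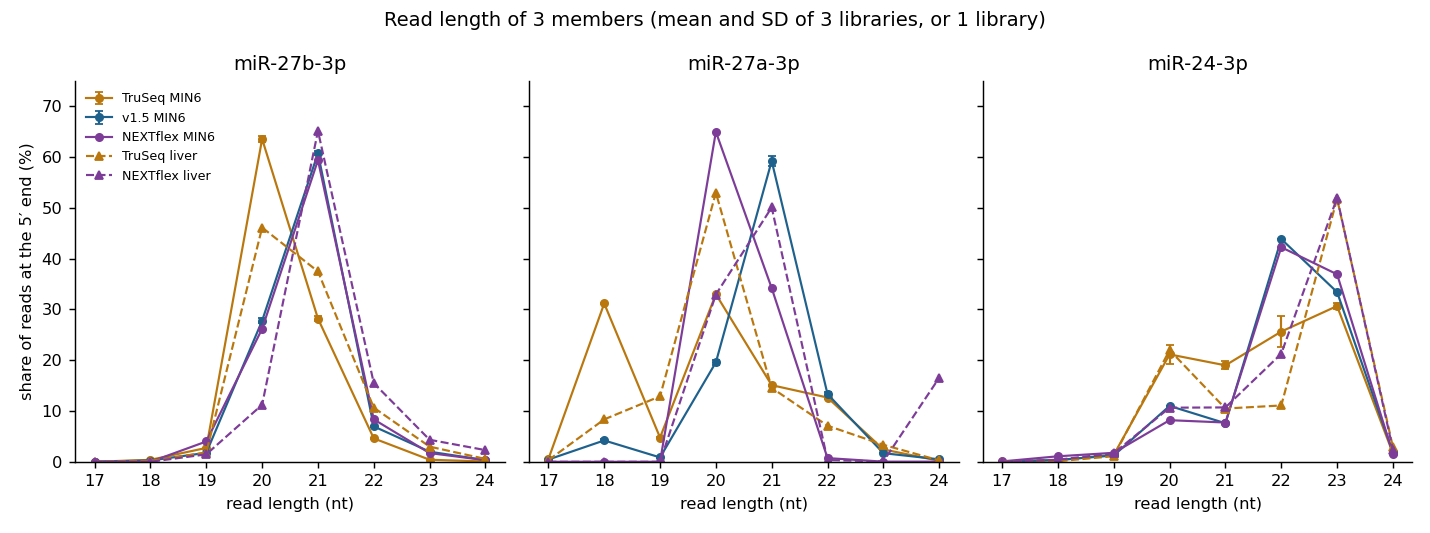
Share of reads by length in nt at the annotated 5′ end of miR-27b-3p, miR-27a-3p and miR-24-3p, in percent. Points are means with SD for the groups of 3 libraries and single values for the other libraries. miR-27b-3p has its peak at 20 nt in the TruSeq libraries and at 21 nt in the v1.5 and NEXTflex libraries.

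Mature miRNAs can carry a base at the 3′ end that the genome does not have there, most often U or A added by a terminal transferase, and the reads of these members showed such ends. The letter of a mismatch in the files is the base of the read. In 235354 reads with a mismatch inside the mature sequence, over 4 members, the letter never equalled the RefSeq base. miR-24-3p had a T, read from a U, after 22 matching bases in 26.6%, 27.2% and 28.5% of its reads in TruSeq MIN6, in 28.6%, 30.0% and 30.2% in v1.5 MIN6 and in 32.2% in NEXTflex MIN6. All 7 MIN6 values lay between 26.6% and 32.2%, and both liver values lay above them. The liver values were 41.8% with TruSeq and 35.7% with NEXTflex.

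An added A at the same place was rarer and also higher in liver. It was in 1.70% ± 0.11 of the miR-24-3p reads in TruSeq MIN6 and in 2.55% ± 0.02 in v1.5 MIN6 (SD, n = 3 each), in 3.38% in NEXTflex MIN6, and in liver in 7.95% with TruSeq and 13.9% with NEXTflex. For miR-24-3p the share of all reads with a mismatch at the last base was 34.1% to 36.6% in the 6 GAIIx libraries, 38.9% in NEXTflex MIN6, and 59.3% and 57.4% in TruSeq and NEXTflex liver. Both liver libraries were above all 7 MIN6 libraries in this measure, and both came from 1 RNA sample of 1 mouse.

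miR-23b-3p carried a T after 23 matching bases in 26.3% to 26.6% of its reads in TruSeq MIN6, 16.4% to 16.7% in v1.5 MIN6 and 32.1% in NEXTflex MIN6. In liver the share was 42.9% with TruSeq and 28.0% with NEXTflex. Of the 5 main members, miR-23b-3p was the one with fewer mismatched last bases in v1.5 than in TruSeq, 25.1% ± 0.6 against 31.5% ± 0.5 (SD, n = 3 each). For miR-27b-3p the share was higher in v1.5, 17.1% ± 0.1 against 6.43% ± 0.10 (SD, n = 3 each). miR-23a-3p, miR-27a-3p and miR-24-3p had differences of 5.11, 2.20 and 1.75 percentage points, all higher in v1.5.

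Around the annotated 5′ ends, 15 shifted ends within 5 nt reached 10 RPMM in at least 1 of the 9 libraries. Of these, 13 entered the edgeR test and 13 passed, against 84.4% of all ends, but 9 had reached 10 RPMM in only one of the groups compared. Among these 9 are the miR-27b-3p starts 3 and 4 bases downstream, which entered through TruSeq alone, so that limit set their direction. miR-27b-3p reads starting 3 bases downstream had 123, 102 and 87.5 RPMM in TruSeq MIN6, 1.81, 1.91 and 1.95 in v1.5 MIN6 and 1.25 in TruSeq liver. Their commonest length in TruSeq MIN6 was 17 nt, with 48.9% to 51.9% of the reads. A start 4 bases downstream had 31.5, 27.8 and 31.2 RPMM in TruSeq MIN6 and 0.602 to 0.980 in v1.5 MIN6, and 97.0% to 98.5% of its TruSeq MIN6 reads were 16 nt long. Both shifts change the seed. Their log2 fold changes were -5.77 (SE 0.17) and -5.32 (SE 0.19), beside -2.13 for the annotated start.

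Shifted starts of miR-24-3p had the direction of the annotated one, but the limit set this for all except the start 1 base downstream. That start reached the limit in both groups. The starts 2 bases downstream and 1 base upstream entered through v1.5 alone. The start 2 bases downstream had 6.17, 4.82 and 7.14 RPMM in TruSeq MIN6 and 144, 136 and 148 in v1.5 MIN6 (log2 fold change 4.55, SE 0.17), and 15.6 in NEXTflex MIN6. For the start 1 base downstream the log2 fold change was 3.22 (SE 0.21), and for the start 1 base upstream it was 4.13 (SE 0.24). The annotated start had 5.16. The shifted start of miR-23b-3p 3 bases downstream also entered through v1.5 alone, so the limit set its direction. It passed with a log2 fold change of 0.76 and an adjusted p of 0.0243 (edgeR's quasi-likelihood test). It lost the call in 8 of 14 alternatives, whose adjusted p ran from 0.00378 to 0.537. Leaving out TruSeq replicate 2 or 3, or v1.5 replicate 2 or 3, gave 0.0717, 0.0703, 0.0836 and 0.0677.

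Each of the 6 arms on the other side of the hairpins was rarer in every library than the 3p arm it was set against. Counted at annotated starts, miR-24-2-5p was the nearest to that 3p arm in the TruSeq libraries, but not in the others. There miR-27a-5p (v1.5 MIN6, 2.79% to 3.14%), miR-23a-5p (NEXTflex MIN6, 5.92%) and miR-27b-5p (NEXTflex liver, 0.721%) had higher shares. The 5p arms of miR-24 were set against miR-24-3p of both hairpins, and the other arms against their own 3p arm. These shares are therefore not measured alike. Whether a 5p arm of miR-24 was rarer than the 3p arm of its own hairpin cannot be told. In TruSeq MIN6, miR-24-2-5p stood at 24.9% ± 2.1 of miR-24-3p (SD, n = 3). In v1.5 MIN6 it was at 0.602%, 0.599% and 0.610%, in NEXTflex MIN6 at 1.86%, in TruSeq liver at 2.70% and in NEXTflex liver at 0.557%. miR-24-2-5p itself had 198, 188 and 219 RPMM in TruSeq MIN6, 187, 169 and 169 in v1.5 MIN6 and 95.4 in NEXTflex MIN6. Its groups did not overlap, and its log2 fold change was -0.20 (SE 0.08, adjusted p = 0.0656, edgeR), which did not pass. Over 16 alternatives the adjusted p ran from 3.75e-08 to 0.156, and 7 of them passed, with the lower level in v1.5 in all 16.

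**Figure D5:**
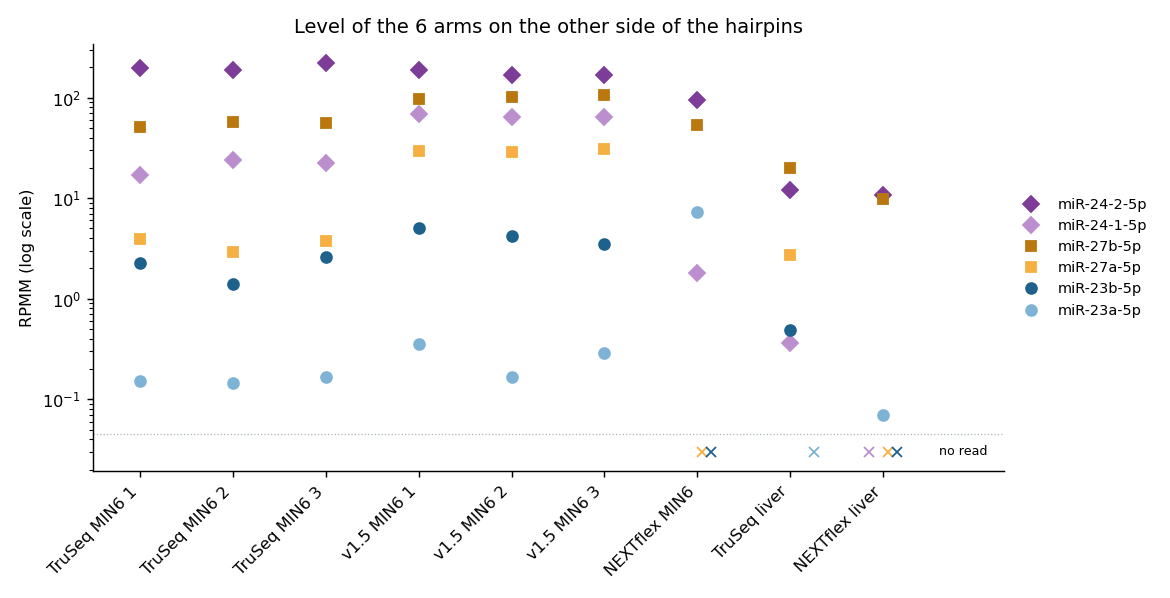
Level of the 6 arms miR-24-2-5p, miR-24-1-5p, miR-27b-5p, miR-27a-5p, miR-23b-5p and miR-23a-5p in RPMM on a log axis, 1 point per library for the 9 libraries. Crosses under the dotted line mark arms with no read at the annotated 5′ end. miR-24-2-5p is the highest of the 6 in all 7 MIN6 libraries and has 11.9 and 10.7 RPMM in the liver libraries.

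Of the other 5p arms, miR-27a-5p, miR-24-1-5p and miR-27b-5p were tested and passed as higher in v1.5. miR-27a-5p had 3.91, 2.92 and 3.74 RPMM in TruSeq MIN6 and 29.7, 28.6 and 30.9 in v1.5 MIN6 (log2 fold change 3.07, SE 0.13). It had no read in NEXTflex MIN6, which by counting error alone allows up to 0.117 RPMM. miR-24-1-5p, which comes from the b cluster, had 17.2, 23.9 and 22.5 RPMM in TruSeq MIN6 and 68.5, 63.8 and 63.5 in v1.5 MIN6 (log2 fold change 1.62, SE 0.15). Next to the arm of the a cluster, miR-24-1-5p was at 8.65% to 12.7% of miR-24-2-5p in TruSeq MIN6, counted at annotated starts. It was at 36.6% to 37.7% in v1.5 MIN6, at 1.89% in NEXTflex MIN6 and at 3.05% in TruSeq liver. In NEXTflex MIN6 its start 1 base upstream had 6.18 RPMM, which is 343% of the annotated start. In TruSeq and v1.5 MIN6 that share was 15.1% to 27.2%. The start 1 base downstream had no read in NEXTflex MIN6, against 25.7% to 50.9% in TruSeq and v1.5 MIN6. How far shifted starts set the 1.89% was not tested.

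miR-27b-5p had 50.9, 57.4 and 56.2 RPMM in TruSeq MIN6, 95.8, 102 and 106 in v1.5 MIN6 and 53.0 in NEXTflex MIN6. Its log2 fold change from TruSeq to v1.5 was 0.88 (SE 0.08), beside 0.61 for the median end. As a share of miR-27b-3p it rose from 0.0734% ± 0.0053 to 0.591% ± 0.003 (SD, n = 3 each), and it was 2.17% in NEXTflex MIN6. miR-23b-5p stayed between 1.39 and 5.08 RPMM in the 6 GAIIx libraries. miR-23a-5p was at 0.146 to 0.357 RPMM there and at 7.24 RPMM in NEXTflex MIN6. In NEXTflex liver miR-23b-5p had no read at its annotated start. Its start 1 base upstream had 17.9 RPMM in that library, where miR-24-2-5p had 10.7 and miR-23b-3p had 167. All of these reads were 21 nt long, in 4 distinct forms. The same start had 0.182 RPMM in TruSeq liver, from the same RNA, and at most 1.82 in the MIN6 libraries.

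NEXTflex MIN6 was 1 library from other RNA, on another sequencer at another center, so kit, sequencer, center and RNA cannot be told apart. No test was made of this library. Of the 8 members with at least 10 RPMM in it or in TruSeq MIN6, 7 were lower in NEXTflex MIN6, against 48.9% of the 372 ends named as miRNAs that met the same limit. Fold changes below are ratios after 1 RPMM was added. Of the 8 members, 3 were lower by more than 5-fold, against 17.7% of the named ends. These were miR-27b-3p by 30.7-fold, miR-27a-3p by 14.6-fold and, at its annotated start, miR-24-1-5p by 7.92-fold. miR-24-3p was higher by 6.32-fold, where 19.6% were higher by more than 5-fold, and miR-23b-3p and miR-23a-3p were lower by 4.41-fold and 2.32-fold. Against v1.5 MIN6, all 9 members at this limit were lower in NEXTflex MIN6, against 61.4% of the named ends, and the 5 main members by 5.66-fold for miR-24-3p to 16.2-fold for miR-27a-3p. More than 5-fold lower were 7 of the 9 members and 23.6% of the named ends, and more than 5-fold higher were 0 and 17.2%.

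In liver, 1 RNA sample was sequenced with TruSeq and with NEXTflex, both on the HiSeq, and the 5 main members had the same directions between these kits as in MIN6. miR-27b-3p had 20209 RPMM with TruSeq (20141 to 20277) and 1360 with NEXTflex (1341 to 1379), a 14.8-fold difference. miR-24-3p had 442 RPMM (432 to 452) and 1923 (1901 to 1946), higher in NEXTflex by 4.35-fold. With TruSeq, miR-24-3p and miR-27a-3p at 443 RPMM (433 to 453) could not be told apart when all reads were counted. Without the reads that cannot be told from miR-27b-3p, miR-27a-3p had 391 RPMM, under the interval of miR-24-3p. With NEXTflex, miR-27a-3p was the lowest of the 5 at 50.2 (46.7 to 54.0).

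In NEXTflex liver miR-23b-3p was lower than in TruSeq liver by 6.73-fold, miR-27a-3p by 8.66-fold and miR-23a-3p by 2.91-fold. Of the 254 named ends at the 10 RPMM limit in liver, 28.0% were lower with NEXTflex by more than 5-fold and 11.4% were higher by more than 5-fold, against 3 and 0 of the 7 members at that limit. Lower with NEXTflex by any amount were 6 of the 7 members and 61.4% of the named ends. miR-122-5p had 17244 RPMM with TruSeq and 532452 with NEXTflex, which leaves less of the NEXTflex reads for every other end. How far this set the folds and directions of the members was not tested. These single libraries carry no replicate error.

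MIN6 cells and liver can be compared within a kit only against 1 liver library each, with 3 MIN6 libraries for TruSeq, whose mean was used, and 1 for NEXTflex, so no test was made. For TruSeq the sequencers differ as well. The study's methods name TRIzol for RNA isolated at the NIH, where the GAIIx libraries were sequenced, and a Norgen kit for the liver RNA. In bulk RNA, fewer cells that hold a miRNA and less of it per cell cannot be told apart. All 5 main members had fewer RPMM in liver than in MIN6 within TruSeq and within NEXTflex, as had 68.7% and 75.7% of the named ends. With TruSeq the difference went from 1.12-fold for miR-23a-3p to 3.70-fold for miR-27b-3p, where the median named end was 5.26-fold lower. With NEXTflex it went from 1.23-fold for miR-27a-3p to 2.67-fold for miR-24-3p, where the median named end was 12.7-fold lower. RPMM are shares of a library, and miR-122-5p alone had 532452 RPMM in NEXTflex liver, against 128 in NEXTflex MIN6. That leaves less for every other end in NEXTflex liver. Whether the members would still be lower there with miR-122-5p left out of the total was not tested. Of the 414 placed names, 358 are on the study's MIN6 list of highly expressed miRNAs and 56 on its liver list only. The named ends were thus largely chosen for a high level in MIN6. Their shares and medians, here and in the next paragraph, lean towards lower in liver for that reason, and no rank of the members is read from them.

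The 5p arms of miR-24 had the widest gaps between MIN6 and liver among members at that limit. miR-24-2-5p had 11.9 RPMM (10.4 to 13.7) in TruSeq liver and 10.7 (9.14 to 12.5) in NEXTflex liver, lower than in MIN6 by 15.7-fold and 8.23-fold. With TruSeq, 2 of the 8 members at the 10 RPMM limit, miR-24-1-5p and miR-24-2-5p, were lower in liver by more than 5-fold, against 50.4% of the named ends. With NEXTflex it was 1 of 7, miR-24-2-5p, against 56.5%. miR-24-1-5p had 0.364 RPMM in TruSeq liver, from 6 reads. It had no read in NEXTflex liver, which by counting error alone allows up to 0.209 RPMM. The paralog ratios were also lower in liver within both kits. miR-27b-3p was 45.7 times miR-27a-3p in TruSeq liver and 27.1 times in NEXTflex liver, against 80.0 to 83.0 and 39.3 in MIN6. miR-23b-3p was 4.46 and 1.94 times miR-23a-3p, against 6.09 to 6.34 and 3.28 in MIN6.

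The profile of each main member over the 9 libraries was set beside those of 255 other named miRNAs with at least 100 RPMM in some library. The points share kits and sources, so these correlations of log2 levels are descriptions only. miR-27b-3p was most like miR-191-5p (r = 0.99), and miR-24-3p was most like let-7f-5p (r = 0.99). With each other these 2 members had r = -0.30. miR-23a-3p was most like miR-362-5p (r = 0.97), miR-23b-3p like miR-33-5p (r = 0.95) and miR-27a-3p like miR-339-3p (r = 0.98). Among the members themselves, r was 0.96 for miR-23a-3p with miR-23b-3p, 0.88 for miR-27a-3p with miR-27b-3p, 0.86 for miR-23a-3p with miR-27a-3p and 0.72 for miR-23b-3p with miR-27b-3p. For miR-23b-3p with miR-27a-3p, from different clusters, r was 0.95.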

How the data were processed

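Small RNA libraries were analysed: 3 TruSeq and 3 v1.5 libraries of MIN6 cells, and single NEXTflex MIN6, TruSeq liver and NEXTflex liver libraries. For each, the authors deposited alignments to mm9 with an edit string and an expected count; reads that fit several loci equally well are shared evenly between them. Per the labels, cutadapt and Bowtie were used (versions not given in the sources used here). The first and last 4 nt of NEXTflex reads had been trimmed. Alignments of 14 nt and more are in the files. Sums of the deposited expected counts exceeded the study's numbers of mapped reads by 0.264% to 8.41%, for a reason that was not found.

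For RPMM, counts at a 5′ end were added up and scaled to 1e6 mapped reads. miRNA names came from the study's own expression lists and were joined to the 5′ ends with the same values in every library (relative tolerance 3e-05). miR-23b-5p was placed by RefSeq spacing. Counts were rounded and tested with edgeR 4.0.16 (quasi-likelihood, library size the mapped reads, Benjamini-Hochberg over all ends), and DESeq2 1.42.0 and the other alternatives are given in the closing section. Ratios and read forms were tested by exact permutation (SciPy 1.17.1). R 4.3.3 and Python 3.11.15 were used, and the fit was tested on simulated data. Single libraries were compared after adding 1 RPMM. Members, lists and tests were chosen with earlier results of these data known. Named in the text are the members, their 5′ ends within 5 nt that reached 10 RPMM, 2 label checks, seed neighbours and, for each main member, the miRNA with the most similar profile; all other names were left out. miR-30e-5p, a reference miRNA of the study, had 4403 RPMM in TruSeq liver and 2045 in NEXTflex liver. Replicates of one group differed by more than sampling noise in chi-square tests, so none was merged.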

Additional observations from a re-analysis of the deposited data

Results flagged for a closer look

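Some signals lie outside the arms counted as members. On the strand opposite to Mir24-1, where GENCODE M21 lists Mir3074-1, reads with their 5′ end at chr13:63402540 (mm9) had 8.28, 7.89 and 7.23 RPMM in TruSeq MIN6, 3.01, 2.09 and 2.12 in v1.5 MIN6, 27.8 in NEXTflex MIN6 and 0.303 in TruSeq liver. There was no read in NEXTflex liver, which by counting error alone allows up to 0.209 RPMM. The end 1 base further, at chr13:63402541, went the other way between the kits, with at most 1.61 RPMM in TruSeq MIN6, 4.76, 3.77 and 4.91 in v1.5 MIN6 and no read in NEXTflex MIN6. The values at 63402540 were above the level that a count of 0 allows in every MIN6 library.

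The other signal is a short RNA that starts 23 nt before miR-27b-5p, at chr13:63402003 (mm9). It had 3.16, 3.07 and 3.24 RPMM in TruSeq MIN6 and 20.5, 21.2 and 22.0 in v1.5 MIN6, and 95.2% to 100% of these reads ended on the base before miR-27b-5p. It had 2 reads in TruSeq liver and none in either NEXTflex library. By counting error alone, the upper limit in NEXTflex MIN6 was 0.117 RPMM. A like start 21 nt before miR-24-1-5p had 0.747 to 1.61 RPMM in TruSeq MIN6, 2.35 to 3.81 in v1.5 MIN6 and 7.02 (101 reads) in NEXTflex liver, with no read in NEXTflex MIN6, and 77.8% to 100% of its reads ended on the base before that arm. The groups of 3 libraries are too small for a search for outlying libraries.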

How the results depend on the processing

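Of the 4761 ends called at 10 RPMM, the number became 887 at 100 RPMM and 18436 at 1 RPMM, 3086 with alignments without mismatch and 346 of 372 with miRNA names only, all of which changed how many ends were tested. It was 4738 with TMM factors, 4698 with DESeq2 size factors, 4702 in DESeq2 and 4569 to 4745 leaving out 1 library. Replicate numbers do not pair the samples (correlations of same-numbered samples 0.24, -0.07 and 0.01), and a replicate block gave 4806.

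miR-27a-3p turned to -0.15 with TMM factors (adjusted p = 0.236, edgeR), to -0.37 with DESeq2 size factors (0.0433, edgeR) and to -0.37 in DESeq2 (0.0116). miR-24-3p and miR-27b-3p kept direction and call in all 16 alternatives, with log2 fold changes of 4.63 to 5.19 and -2.66 to -2.08.

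With alignments without mismatch the log2 ratio differences became 3.43 for miR-23b-3p to miR-27b-3p, 1.03 for miR-23a-3p to miR-27a-3p, 4.003 for miR-24-3p to miR-23, 7.39 for miR-24-3p to miR-27, -0.12 for miR-23b-3p to miR-23a-3p and -2.52 for miR-27b-3p to miR-27a-3p. With reads of at least 20 nt they were 0.63 (miR-23a-3p to miR-27a-3p), -0.38 (miR-23b-3p to miR-23a-3p) and -2.84 (miR-27b-3p to miR-27a-3p). With reads that tell the copies apart, an alternative chosen after seeing the data, they were 0.52 (miR-23a-3p to miR-27a-3p) and -2.92 (miR-27b-3p to miR-27a-3p). With all starts within 5 nt summed, the difference of v1.5 from TruSeq became -19.5 percentage points for 21 nt reads of miR-23a-3p and 1.17 for last-base mismatches of miR-24-3p. The cause of these shifts was not tested. Counting error limits the arms with few reads, such as miR-23a-5p.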
